A study of Danio rerio with 9 samples.

Results

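Single-mutant zebrafish larvae (Danio rerio), homozygous for the stl700 allele of fam177a1a, were compared with wild-type larvae across all genes measured. The comparison rests on 6 of the 9 libraries of the series, 3 of each genotype, and on 21694 tested genes of the 28802 gene rows of the count table. Each library was made from total RNA of 7 whole larvae pooled at 8 days post fertilization, with ribosomal RNA depleted, and the wild type carries the name of the AB line in the column headers. The other 3 libraries came from double mutants, which carry stl700 and also stl746, an allele of fam177a1b, on both chromosomes. They entered the fit to estimate the spread and are quoted where single-mutant replicate 1 is placed. Whether libraries came from separate clutches, and whether wild-type and mutant larvae shared parents, is not in the labels. The p-values therefore measure the spread between these libraries, which may be technical.

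FAM177A1, the human counterpart of the mutated gene, encodes a protein of the Golgi complex, the organelle that sorts and glycosylates secreted and membrane proteins. In humans its loss is known to cause a neurodevelopmental disorder. At this age the yolk of a zebrafish larva is largely used up, and its liver, gut, muscles and eyes are at work. Every tissue of the larva contributes to a library of whole larvae. A change in such a library can come from fewer cells of a type or from less RNA per cell, and these cannot be told apart. The defining markers of 17 tissues and cell types, from fabp10a of liver to rag1 of lymphocytes, were present in all 6 libraries.

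The row named fam177a1 was first checked in every library. It held 669, 490 and 487 counts in wild type and 8, 14 and 11 counts in the single mutants, or 27.0, 26.1 and 22.4 against 0.458, 0.829 and 0.628 CPM (a gene's count per 1e6 counts of the library total, scaled as in edgeR's TMM method). Every single-mutant library lay far below every wild-type library (log2 fold change −5.29, SE 0.21, edgeR adjusted p = 2.70e-10). Without single-mutant replicate 1 the log2 fold change was −5.10. The row is not split into fam177a1a and fam177a1b.

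Single-mutant replicate 1 stood apart from replicates 2 and 3. Library totals ran from 17.2 to 24.7 M counts, and that library, with 17.3 M, was not the shallowest. Its log2 CPM correlated with replicates 2 and 3 at 0.978 and 0.977, while those correlated with each other at 0.986. With the 3 double mutants it correlated at 0.983, 0.979 and 0.983, above its values with its own group. On the first principal component, with 55.4% of the variance, it lay at 26.8, near the double mutants (22.28 to 26.21). Replicates 2 and 3 lay there at 39.46 and 43.7, and wild type between −61.75 and −60.24. On the second principal component, with 16.5% of the variance, replicate 1 lay at −1.98, near wild type (2.88 to 7.45). That is between the double mutants (−31.53 to −25.81) and replicates 2 and 3 (34.09 and 38.01). On the third principal component, which held 6.73% of the variance, it lay at −39.43 and the other 8 libraries between −2.61 and 16.26. The cause was not tested. Values are therefore those of all libraries, and those without replicate 1 stand beside many, not all, of the calls and counts that moved without it.

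With all libraries, edgeR called 9116 genes at an adjusted p under 0.05, or 42.0% of those tested. Of these, 4222 were higher in single mutants (19.5%) and 4894 lower (22.6%). Without replicate 1, 10363 of 21984 tested genes were called (47.1%), 4949 higher (22.5%) and 5414 lower (24.6%). A total of 8594 genes held, meaning that they were called in the same direction both times (39.6% of those tested). They comprised 3961 higher genes (18.3%) and 4633 lower genes (21.4%), and made up 94.3% of the calls with replicate 1 and 82.9% of the calls without it. A further 522 genes were called only with replicate 1, and 1699 only without it, of which 962 were higher and 737 lower. No gene was called in opposite directions. The larger side was not the same in every setting, with 4540 higher and 4256 lower among genes with a mean of at least 1 CPM, and 4585 and 4443 with no filter on low counts. The higher side was also the larger, with 51.1% to 51.5% of calls, without wild-type replicate 1, single-mutant replicate 2 or 3, or any 1 double mutant.

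Changes of at least 2-fold were fewer. They were found in 1977 called genes, 1139 higher (5.25%) and 838 lower (3.86%). Of these, 1874 held without replicate 1, and 1802 were at least 2-fold both times. The groups of libraries did not overlap at all in 22.6% of genes on the higher side and 26.5% on the lower side, called or not.

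**Figure D1:**
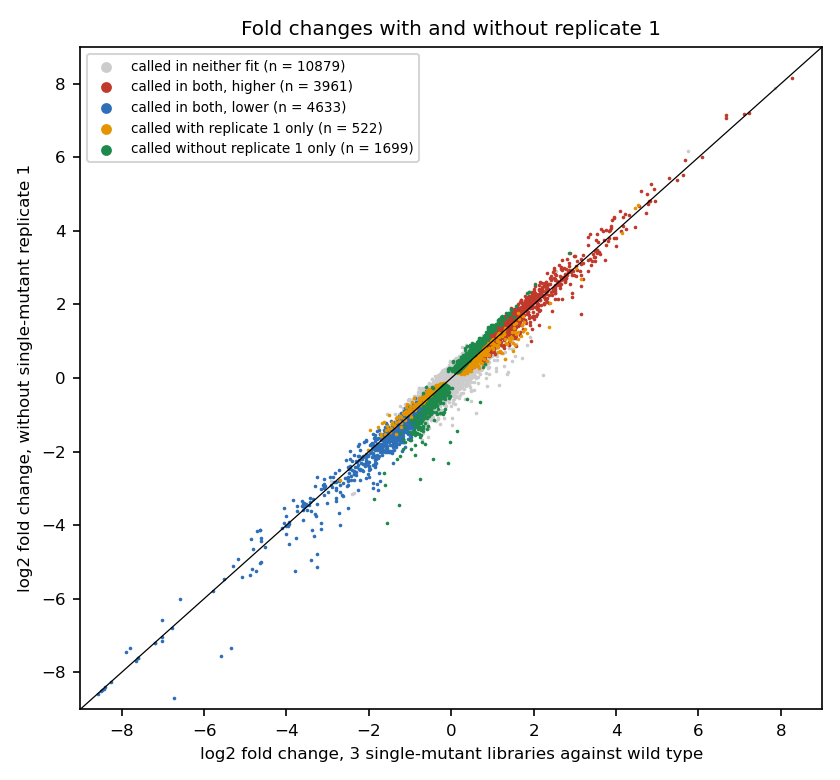
Log2 fold change of each tested gene with all 3 single-mutant libraries (horizontal) against the same without replicate 1 (vertical), coloured by where the gene was called. The 8594 genes called both times (red, blue) lie near the diagonal of equal values, and the 1699 called only without replicate 1 (green) lie mostly further from zero on the vertical axis.

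Among the genes called with all libraries, replicate 1 deviated least from wild type in 61.1%, replicate 2 in 18.6% and replicate 3 in 20.1%. The next values describe the genes that held, a set that favours deviation in replicates 2 and 3 because it requires a call without replicate 1. For the higher genes its median distance from the wild-type mean was 0.50 log2 units, against 0.71 in replicate 2 and 0.71 in replicate 3. For the lower genes the medians were −0.45, −0.65 and −0.63. Replicate 1 deviated least of the 3 libraries in 64.6% of the genes that held, replicate 2 in 16.9% and replicate 3 in 18.2%. In 404 of them replicate 1 lay inside the range of the wild-type libraries.

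How many genes held depended on abundance. Genes were split by mean CPM into 5 bins of equal size. In the lowest bin 22.6% were called, and 15.6% of those calls were lost without replicate 1. In the highest bin 55.0% were called and 2.93% of the calls were lost.

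**Figure D2:**
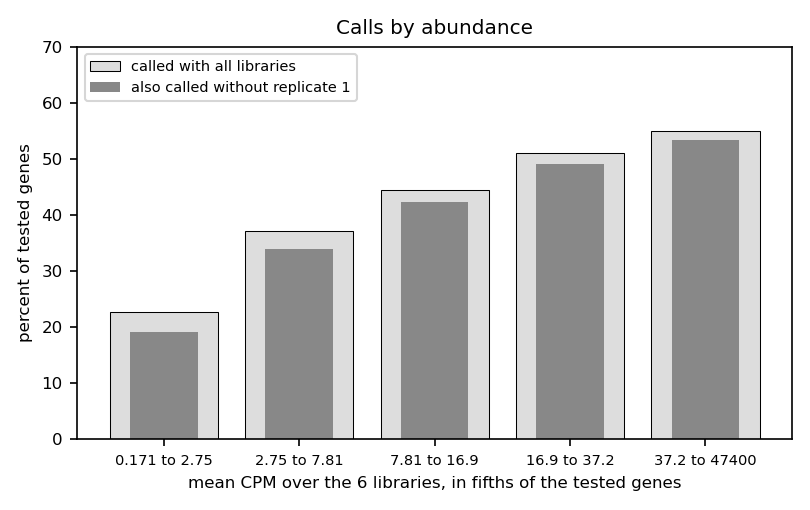
Percent of tested genes called with all libraries (pale bars) and also without replicate 1 (dark bars), in 5 bins of equal size by mean CPM over the 6 libraries. The pale bars rise from 22.6% to 55.0% and the dark bars from 19.1% to 53.4%.

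The 15 genes named for the highest folds that held include an enzyme of vitamin D breakdown, genes induced in fasting and genes of innate immunity. No overlap between the single-mutant and wild-type libraries was a condition for these 15 and for the 15 lowest, so it follows from the choice. The vitamin D hydroxylase cyp24a1, which starts the breakdown of the hormone, had 1.37, 1.07 and 0.321 CPM in wild type and 20, 142 and 124 CPM in the single mutants. All 3 single-mutant libraries were far above wild type, and replicate 1 was the lowest of them (log2 fold change 6.67, SE 0.98, adjusted p = 0.00224; 7.15 without replicate 1). The ubiquitin ligase fbxo32, which marks muscle proteins for breakdown, had 2.5, 1.92 and 1.06 CPM against 10.5, 58.1 and 66.6 CPM. The binding protein igfbp1b, which sequesters insulin-like growth factors, had 1.37, 2.13 and 2.2 CPM against 9.44, 47.1 and 40.3 CPM. The kinase pdk2b, which shuts off pyruvate oxidation, had 18.9, 15.1 and 23 CPM against 108, 359 and 421 CPM. In all 3 genes replicate 1 lay between wild type and the other replicates, without overlap, and their log2 fold changes were 4.61, 4.1 and 3.96 with replicate 1 and 5.08, 4.54 and 4.36 without it.

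Immune genes were also among the highest folds. The DNA sensor cgas had 1.65, 1.97 and 1.01 CPM in wild type and 18.8, 25.4 and 39.1 CPM in single mutants (log2 fold change 4.17, adjusted p = 0.000211; 4.39 without replicate 1). A modifier that is conjugated to proteins in antiviral defence, isg15, had 0.887, 2.4 and 1.61 CPM against 38.2, 8.47 and 29.5 CPM. The inducible nitric oxide synthase nos2a had 1.37, 1.07 and 1.47 CPM against 6.18, 30.7 and 23.6 CPM. Replicate 1 was the highest single-mutant library for isg15 and the lowest for cgas and nos2a, and none of the 3 genes overlapped between the genotypes. The cytokine il1b had 0.887, 1.07 and 0.734 CPM against 8.24, 1.90 and 29.3 CPM (adjusted p = 0.0320). Its call ended without any 1 of the 3 wild-type libraries (adjusted p = 0.0944, 0.0846 and 0.0937) or without double-mutant replicate 3 (0.0517), with limma-voom (0.0538), with a replicate block (0.0591) and with only the 6 libraries compared (0.0778).

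A pair of MHC class I genes, mhc1uba and mhc1uka, whose products present peptides to T cells, were nearly without counts in wild type. Summed over libraries, mhc1uba had 2 counts in wild type and 197 in single mutants, so that the ratio was 124 (95% counting interval 33.9 to 1030). The row mhc1uka had 3 and 137 counts, for a ratio of 57.5 (19.3 to 282). These intervals cover counting error only, and since MHC class I genes are near copies that can share reads, both values are uncertain. The tryptophan dioxygenase tdo2b, which opens the main route of tryptophan breakdown in liver, had the smallest SE of the 15. It was at 2.94, 3.41 and 1.97 CPM against 29.8, 47.4 and 41.7 CPM (log2 fold change 3.84, SE 0.21, adjusted p = 2.58e-07).

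Among the lowest folds that held, several rows went from a clear level in wild type to almost none. The finTRIM row ftr52p had 2.74, 2.45 and 2.34 CPM in wild type and 0 counts in the single mutants, at least 43.7-fold lower against a floor of 3 counts over the 3 libraries. The acyl-CoA thioesterase acot15 had 12.7, 15.9 and 11.9 CPM against 0.00, 0.355 and 0.0571 CPM. The trifunctional protein subunit hadhab, an enzyme of mitochondrial fatty acid oxidation, had 144, 127 and 132 CPM against 8.76, 9.12 and 8.17 CPM (log2 fold change −3.95, SE 0.10, adjusted p = 1.13e-12). Replicate 1 did not stand apart in hadhab, and the 3 single-mutant libraries were nearly equal. Its close copy hadhaa, chosen after its values were seen, was not called (log2 fold change 0.02, adjusted p = 0.937), and reads shared by the copies could be counted for either.

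Genes with products in the Golgi and in the sterol pathway were also among the 15 lowest. The secretory pathway kinase gask1a had 9.31, 6.77 and 12.6 CPM against 0.286, 0.237 and 0.628 CPM. The fucosyltransferase fut9d, which adds fucose to glycans in the Golgi, had 34.8, 36.7 and 30.3 CPM against 6.98, 2.78 and 1.6 CPM. The mevalonate decarboxylase mvda had 47.5, 58.4 and 47.6 CPM against 8.13, 4.56 and 2.97 CPM. All 3 were low in every single-mutant library, and replicate 1 was the highest of these for fut9d and mvda. The complement regulator cfhl1 fell by 3.95 on the log2 scale and the ectonucleotidase entpd3 by 3.51. The dioxin receptor ahr1a fell by 3.26 and the iron reductase steap3 by 3.12.

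**Figure D3:**
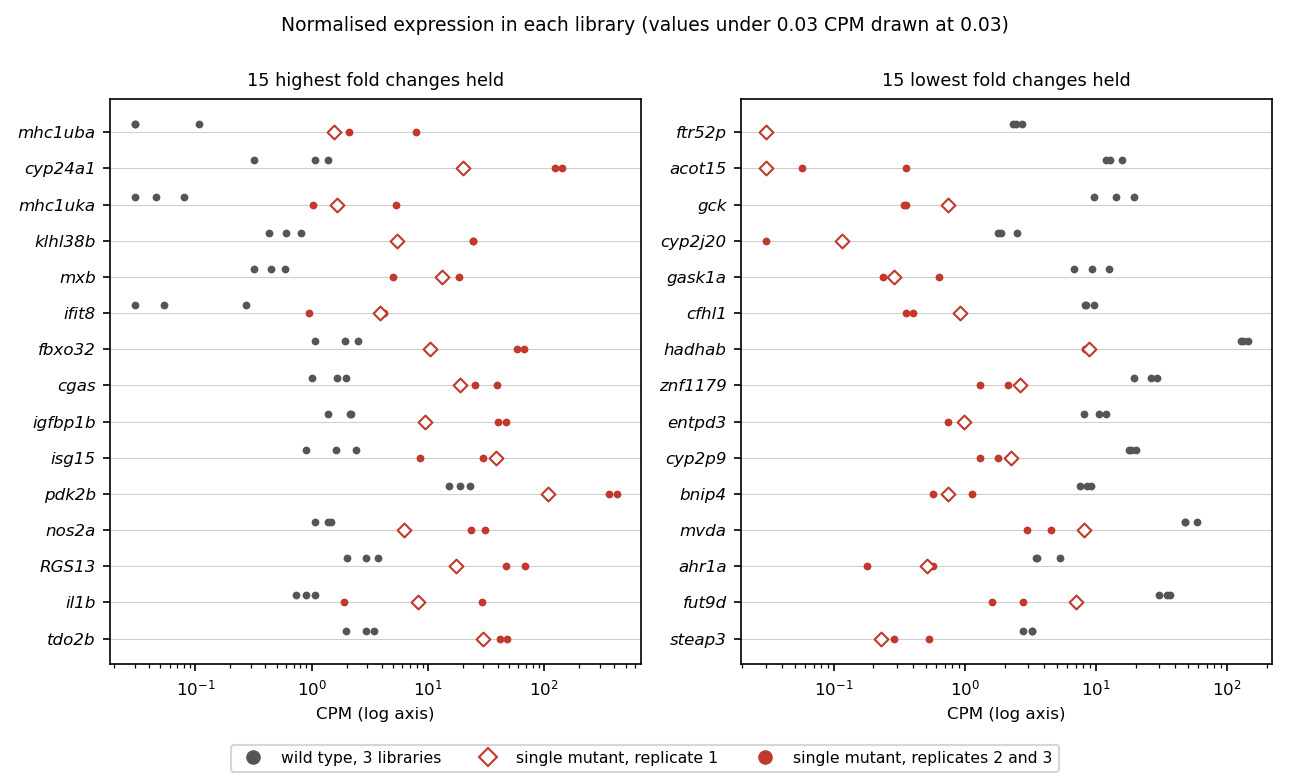
CPM in each library on a log axis for the 15 highest (left) and 15 lowest (right) named fold changes called with and without replicate 1, with values under 0.03 CPM drawn at 0.03. Wild-type points (grey) and single-mutant points (red, open diamond for replicate 1) do not overlap in any row, which was a condition of the choice. The diamond lies nearest wild type in rows such as cyp24a1, fbxo32 and pdk2b.

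Genes whose call changed with replicate 1 were called either only with it or only without it. The 8 named of each class, from 522 and 1699 genes, were those with the largest folds without replicate 1. Where their libraries lie cannot be read apart from that choice. In the 8 named genes called only with it, replicate 2 was the single-mutant library nearest wild type. The antiviral enzyme rsad2 had 0.322, 2.56 and 1.15 CPM in wild type and 17.5, 2.25 and 14.1 CPM in single mutants, with replicate 2 inside the wild-type range (adjusted p = 0.0306 with and 0.0748 without replicate 1). The transcription factor cebpb, a driver of the acute phase, had 85.3, 89.4 and 88.6 CPM against 298, 113 and 378 CPM (adjusted p = 0.0221 and 0.0518). Of the other 6 genes named in this class, lgals17, hpxa, f3b and dusp5 were higher and hsp70l and paqr3b lower, with log2 fold changes from −1.53 to 2.39. The calls of all 8 also ended without at least 1 other wild-type or single-mutant library.

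In the 8 named genes called only without replicate 1, that library was at or near the wild-type levels. The bile acid enzyme cyp7a1, which sets the rate of bile acid synthesis from cholesterol, had 54.3, 76.5 and 88.7 CPM in wild type and 45.0, 6.93 and 8.11 CPM in single mutants. Replicate 1 was just below the wild-type range and replicates 2 and 3 far below it (log2 fold change −3.28 without replicate 1, adjusted p = 0.000136; −1.87 and 0.0821 with it). The clock output repressor nfil3-6 had 39.4, 32.4 and 27.8 CPM against 31.1, 138 and 191 CPM. The neuronal activity factor npas4a had 13, 18.4 and 16.3 CPM against 15.8, 3.73 and 4.63 CPM. Replicate 1 lay inside the wild-type range in both genes, and neither was called with it in the main edgeR fit (adjusted p = 0.0520 and 0.186). Some other settings with all libraries called these genes. For nfil3-6 they were DESeq2 (adjusted p = 0.00517), limma-voom (0.0309), a mean of at least 1 CPM (0.0473) and TMM without the 200 highest rows (0.0499). For npas4a it was limma-voom (0.0137), and for cyp7a1 DESeq2 (0.0299) and limma-voom (0.00131). The collagenase mmp13a, with 5.84, 12.6 and 134 CPM in the single mutants against 6.49 to 7.73 CPM in wild type, was mainly high in replicate 3. DESeq2 called it with all libraries (adjusted p = 0.0142).

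Replicate 1 was inside the wild-type range in 66 genes with a symbol that had at least 1 CPM and changed at least 2-fold without it. Some of them held all the same. The transporter slc16a9a had 14, 18.9 and 13 CPM in wild type and 17.9, 98.9 and 143 CPM in single mutants (adjusted p = 0.0307 with and 2.99e-05 without replicate 1). The stress-regulated transcription factor nfe2l1a had 14.6, 16.2 and 12.9 CPM against 14.7, 58.3 and 64.5 CPM (adjusted p = 0.0441 with it). For such genes the call with all libraries sat close to the threshold. It ended for slc16a9a, nfe2l1a, cbx7a and acsl4b without any 1 wild-type, double-mutant or other single-mutant library (adjusted p from 0.0509 to 0.131). The call of these genes also ended with a replicate block (0.0719 to 0.111) and with only the 6 libraries compared (0.087 to 0.12). The same settings ended the call of lyve1a (0.0534 to 0.11), in which replicate 1 was below the wild-type range.

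To see how far replicate 1 stood apart, genes were counted in which 1 single-mutant library differed at least 2-fold from both others while those were within 2-fold of each other. Of 20056 genes with a mean of at least 1 CPM, this held for 303 with replicate 1 as the odd library, 102 with replicate 2 and 76 with replicate 3. Replicate 1 was below the other single mutants in 209 of the 303 and above in 94. It was nearer the double-mutant mean than the mean of replicates 2 and 3 in 298 of them, nearer the wild-type mean than that mean in 232, and inside the wild-type range in 57. Of the 303 genes, 130 were called with all libraries and 241 without replicate 1. Since the count is defined by replicate 1, its position is a description.

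A glucocorticoid target and vitamin D genes were among the 16 named for the widest gaps. The co-chaperone fkbp5, a classic glucocorticoid target, had 305, 318 and 331 CPM in wild type, 80.3, 546 and 586 CPM in single mutants and 166, 164 and 208 CPM in double mutants. Replicate 1 was below all wild-type libraries and replicates 2 and 3 above them, so that the gene was not called with all libraries (log2 fold change 0.34, adjusted p = 0.712) and was called as higher without replicate 1 (0.83, adjusted p = 2.45e-07). The lymphatic receptor lyve1a had 1.41, 1.49 and 1.93 CPM against 1.32, 15 and 14.8 CPM, and the amino acid transporter slc43a2a 13.3, 13.7 and 12.5 CPM against 18.3, 129 and 146 CPM. The forkhead factor foxq1a went the other way. It had 29.8, 26.5 and 28.1 CPM in wild type, 71.5, 10.9 and 9.71 CPM in single mutants and 59.7 to 62.8 CPM in double mutants, with a log2 fold change of 0.13 with replicate 1 and −1.45 without it.

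Among the genes named for the widest gaps were 3 hydroxylases that make or destroy active vitamin D, so their gap follows from that choice. The enzyme cyp2r1, which makes the circulating form in liver, had 12.8, 12.2 and 11.5 CPM in wild type and 7.21, 1.72 and 1.6 CPM in single mutants. The enzyme cyp27b1, which makes the active hormone, had 6.37, 5.12 and 7.30 CPM against 22.7, 3.55 and 4.45 CPM. Replicate 1 was the highest single-mutant library for both of these and the lowest for cyp24a1. The fall of cyp2r1 held (adjusted p = 0.0356 with and 8.93e-09 without replicate 1) but its call ended without any wild-type library (0.0712 to 0.0910), without single-mutant replicate 2 (0.0961) or 3 (0.0890), without double-mutant replicate 1 (0.0593) or 2 (0.0580) with no filter on low counts (0.0541), with a replicate block (0.0591) and with only the 6 libraries compared (0.0771). The call of cyp27b1 existed only without replicate 1 (log2 fold change −0.65, adjusted p = 0.0370; 0.70 and 0.487 with it). Both vitamin D receptor genes, chosen after their values were seen, rose and held, vdrb by 0.92 (adjusted p = 0.00018) and vdra by 0.47 (adjusted p = 0.00676) on the log2 scale.

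**Figure D4:**
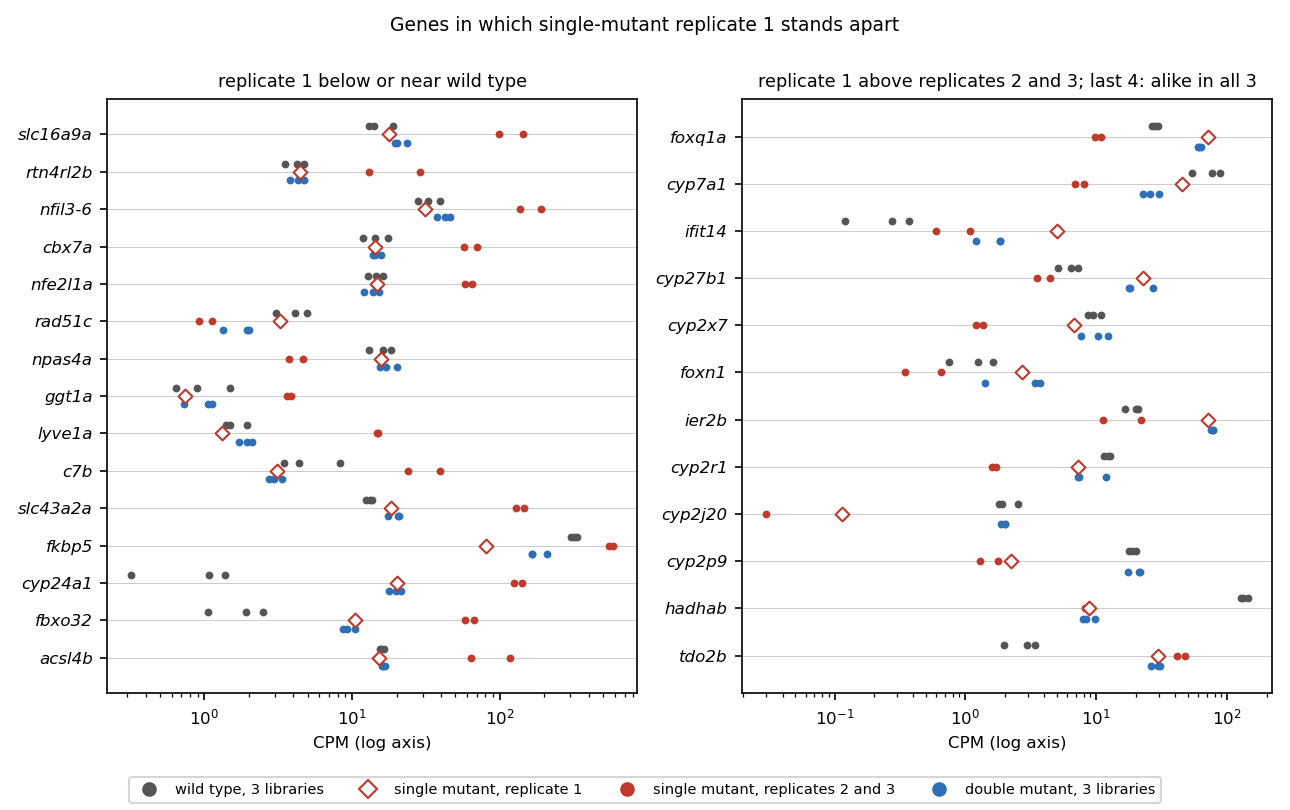
CPM in each of the 9 libraries on a log axis for genes named for the gap between replicate 1 (open diamond) and replicates 2 and 3 (red), with wild type in grey and double mutants in blue. The diamond sits with the grey or blue points in rows such as slc16a9a, lyve1a and foxq1a, and with the red points in cyp2j20, cyp2p9, hadhab and tdo2b.

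Replicate 1 was also placed on genes that separate replicates 2 and 3 from all double mutants by at least 2-fold, a choice that did not use it. There were 220 such genes, and replicate 1 was nearer the double mutants in 148 (67.3%) and nearer replicates 2 and 3 in 72. Where wild type was nearer the double mutants, 117 of 161 genes had replicate 1 with the double mutants (72.7%). Where wild type was nearer replicates 2 and 3, this was 31 of 59 (52.5%). The choice favours genes extreme in replicates 2 and 3, so a library left out of it tends to lie nearer the double mutants. How far this accounts for these shares was not tested. The 72 genes include cytochrome P450 rows and interferon-stimulated genes. The row cyp2p9 had 20.2, 17.7 and 18.6 CPM in wild type, 2.23, 1.3 and 1.77 CPM in single mutants and 21.1, 17.5 and 21.5 CPM in double mutants. The row cyp2j20 had 1.89, 2.51 and 1.79 CPM, then 0.114, 0.00 and 0.114 CPM, then 2.02, 2.00 and 1.88 CPM in the same order. In both, all 3 single mutants were far below wild type and double mutants, and replicate 1 was the highest of them for cyp2p9. The methionine salvage gene apip, chosen after its values were seen, had 6.52, 5.15 and 7.88 CPM in single mutants and 0.0523 to 0.0593 CPM in double mutants.

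The response was next read through 60 lists of genes with a shared role, which held 2122 tested genes. A list's counts are to be set beside the shares over all genes, 19.5% higher and 22.6% lower, and its median log2 fold change beside −0.01 over all genes. Its counts without replicate 1 are to be set beside 22.5% higher and 24.6% lower. Some genes stand in more than 1 list.

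In the insulin-like growth factor and growth hormone axis the genes called were higher. Of 28 tested, 15 were called higher and 0 lower, and all 15 held, with a median of 0.45. Without replicate 1, 19 were higher and 1 lower. The growth hormone receptor ghrb had 14.8, 15.3 and 14.3 CPM in wild type and 46.5, 44.8 and 49.6 CPM in single mutants, with the libraries of each genotype close together (log2 fold change 1.66, SE 0.12, adjusted p = 8.60e-08). The insulin receptor substrate irs2a, which is induced by fasting in liver, had 8.99, 12.8 and 10.6 CPM against 56.8, 116 and 148 CPM, with replicate 1 lowest. The receptor insrb rose by 0.79, the substrate irs1 by 1.03 and the growth factor igf2b by 0.55 on the log2 scale.

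Of 36 genes of gluconeogenesis and the fasting response, 21 were called higher and 2 lower (26 and 2 without replicate 1), and all 23 held. The list's median was 0.47 in replicate 1, 1.14 in replicate 2 and 1.26 in replicate 3, and 10 of its 36 genes were among the 303 in which replicate 1 was the odd library. The transcription factor klf15, which turns on amino acid use in fasting, had 37.5, 41.1 and 35.9 CPM against 82.7, 70.9 and 69.0 CPM, so here replicate 1 was not the lowest. The carboxylase pcxb and the carboxykinase pck2, both of gluconeogenesis, fell by 0.97 and 0.50. In the clock list 30 of 49 rose and 8 fell (34 and 8 without replicate 1), and 8 of 49 were among the 303. The repressor nr1d1 had 19.6, 16.3 and 16.6 CPM against 110, 89.1 and 91.2 CPM, and the activator arntl1a fell by 0.88.

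Genes of cell growth and division fell with or without replicate 1. In DNA replication 43 of 45 fell and 0 rose (44 and 0 without replicate 1). In mitosis and cytokinesis 37 of 43 fell and 0 rose (42 and 0 without replicate 1). Ribosome biogenesis had 33 of 56 lower and 2 higher, and cytosolic aminoacyl-tRNA synthetases, which charge tRNAs for translation, 12 of 17 lower and 1 higher. Nucleotide and one-carbon synthesis had 22 of 35 lower and 2 higher. All of these calls held without replicate 1, although its medians were nearer zero than those of both other replicates in replication (−0.68 against −1.06 and −0.96), mitosis (−0.43 against −0.70 and −0.92) and ribosome biogenesis (−0.29 against −0.50 and −0.37). The snoRNP core protein nop58, needed for ribosomal RNA modification, had 192, 212 and 196 CPM against 92.8, 63.7 and 72.4 CPM (log2 fold change −1.39, adjusted p = 1.2e-06). The uridylate enzyme umps fell by 1.09. Its pathway neighbours ctps1a and ctps1b, paralogs that make cytidine nucleotides, went opposite ways, with log2 fold changes of −0.80 and 1.15.

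Of 33 chromatin genes, 17 were called lower and 6 higher, and 14 and 6 of these held. The Polycomb methyltransferase ezh2 had 73.6, 78.0 and 73.5 CPM in wild type and 35.3, 27.1 and 26.2 CPM in single mutants (log2 fold change −1.35, adjusted p = 1.85e-07). Its partners suz12a and eed fell by 0.88 and 1.2. The DNA methyltransferases dnmt1 and dnmt3bb.3 fell by 0.97 and 1.09, and the demethylating enzyme tet3 rose by 0.46. Rows of small RNAs add up the copies of 1 name, and of these rows 6 of 10 were lower and 1 higher. The summed level of the tested rows was higher in single mutants, at 54000, 52000 and 50300 CPM against 46800, 47700 and 37700 CPM in wild type. Such a sum is set by its most abundant rows, so it does not describe a rise of these rows as a class. The spliceosomal row U1 had 60.5, 63.0 and 35.9 CPM against 4.24, 4.15 and 4.74 CPM. The row Metazoa_SRP, the only one called higher, lost its call without replicate 1 (adjusted p = 0.0501) or without wild-type replicate 3 (0.0576).

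**Figure D5:**
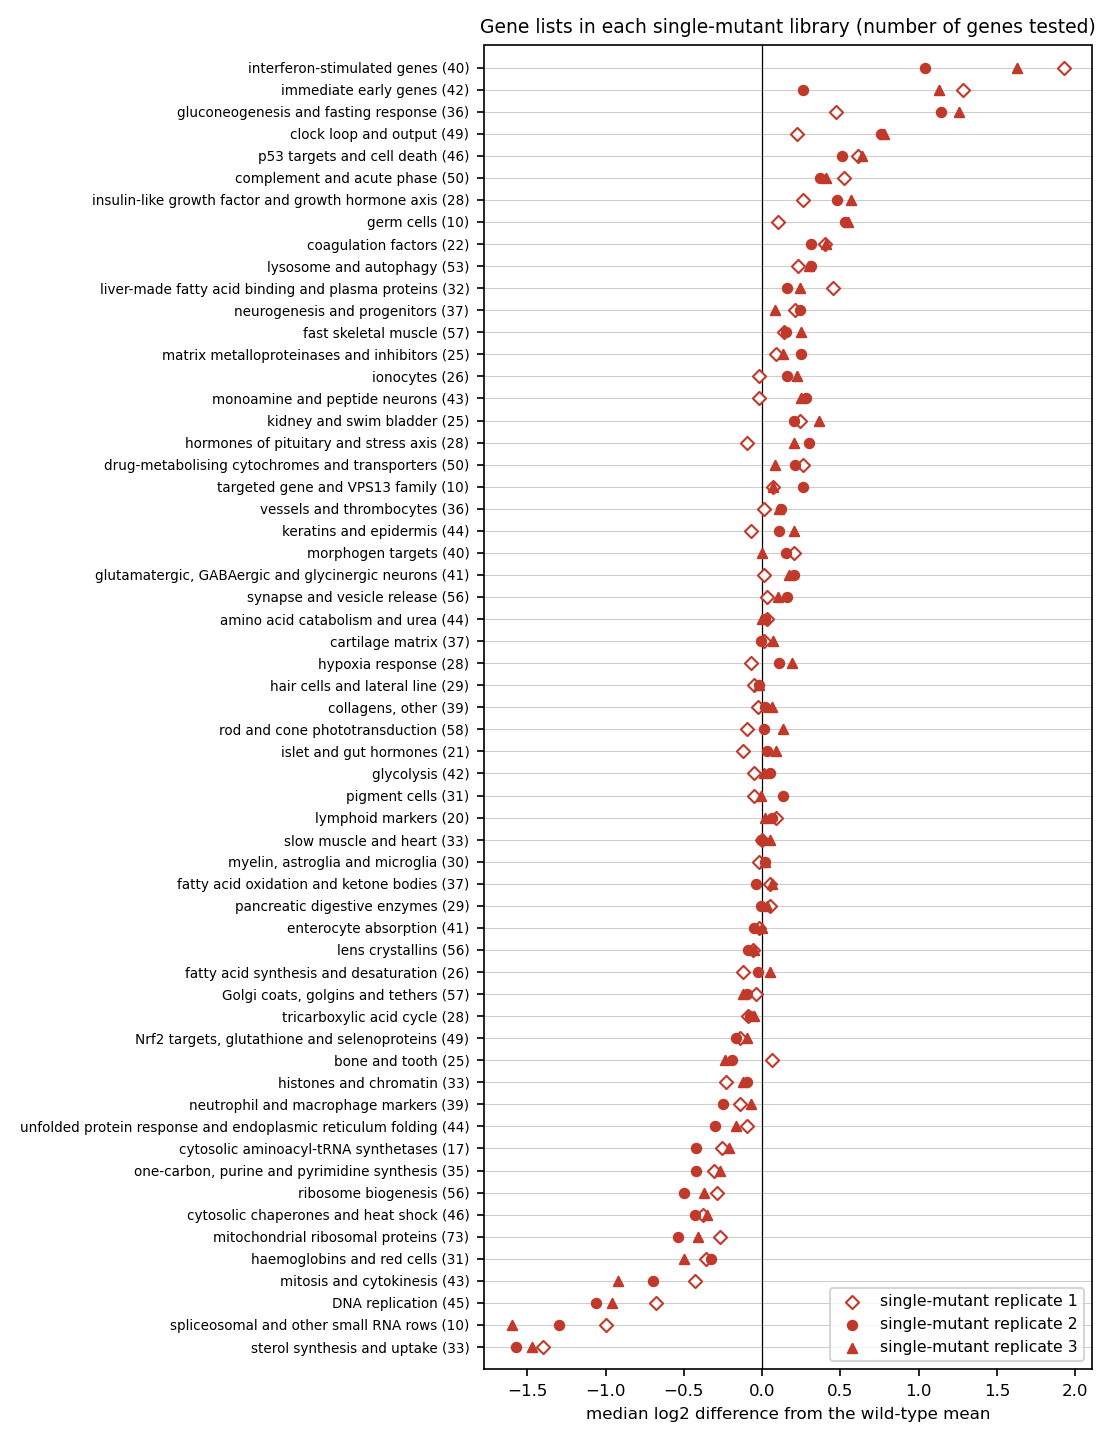
Median log2 difference from the wild-type mean over the tested genes of each list with at least 10 of them, for single-mutant replicates 1 (open diamond), 2 (circle) and 3 (triangle), with lists ordered from high to low. Replicate 1 is nearer zero than both others in lists such as fasting (0.47 against 1.14 and 1.26), clock and DNA replication, and furthest from zero in the interferon list.

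Metabolic lists other than these had genes called in both directions. Sterol synthesis and uptake mostly fell, with 23 of 33 lower and 4 higher, and all 27 held. Its median was −1.52. The list's summed level was 3580, 3940 and 3380 CPM in wild type and 1380, 1290 and 1340 CPM in single mutants. nsdhl, a dehydrogenase of the pathway, was equally low in the 3 single-mutant libraries at 14.5, 14.2 and 14.5 CPM, against 59.9, 65.4 and 55.0 CPM in wild type. Fatty acid oxidation had 12 higher and 12 lower of 37 (11 and 14 without replicate 1). The carnitine transferase of muscle, cpt1b, and its inner membrane partner cpt2 had log2 fold changes of 1.76 and −0.75. In the tricarboxylic acid cycle 5 of 28 fell and 3 rose (5 and 2 without replicate 1). There idh3a, idh3b and idh3g, the 3 subunits of isocitrate dehydrogenase, were all lower (−0.28, −0.55 and −0.32). Leaving out wild-type replicate 1 ended the calls of idh3a (adjusted p = 0.0615) and idh3g (0.0525), and the call of idh3a ended as well without single-mutant replicate 2 (0.0598) or 3 (0.0588).

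The lists of liver-made plasma proteins, of coagulation factors, and of complement and acute phase genes had more genes higher than lower. Of 32 liver-made plasma and binding proteins 19 rose and 4 fell, but 14 and 4 held, and the list's median was 0.45 in replicate 1 against 0.16 and 0.24 in replicates 2 and 3. The plasma glycoproteins ahsg1 and fetub rose by 1.06 and 0.46. Coagulation factors rose in 14 of 22 and fell in 1, and 13 and 1 held. Tissue factor f3a, which starts clotting, had 5.72, 4.85 and 4.96 CPM against 14.5, 10.1 and 15.4 CPM, and the cofactor f5 had 22.5, 25.7 and 29.1 CPM against 38.1, 55.0 and 58.1 CPM. Of 50 complement and acute phase genes 27 were higher and 10 lower, of which 25 and 8 held. Complement c3a.3 rose by 1.34 and c3b.1 by 1.02, while crp2 fell by 0.56. In the same libraries the liver marker fabp10a was at 475, 469 and 407 CPM in wild type and 602, 481 and 537 CPM in single mutants, higher in each of the latter, and the liver list summed to between 16100 and 17000 CPM in wild type and between 18600 and 20900 CPM in single mutants. The part of liver tissue in these results was not tested.

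Gut and pancreas genes showed single large changes within lists of small ones. The amylase row zgc:92137 had 176, 226 and 166 CPM in wild type and 3.66, 4.68 and 4 CPM in single mutants (log2 fold change −5.52, SE 0.17, adjusted p = 5.07e-10). Another amylase, amy2a, chosen after its values were seen, was not called (−0.04, adjusted p = 0.734), and reads shared by these near copies could be counted for either. Of 29 pancreatic enzymes 8 rose and 7 fell, 7 and 6 of which held, with a median of −0.02, and the protease ctrl had 749, 681 and 689 CPM against 1140, 1120 and 1150 CPM. Enterocyte genes had 11 higher and 16 lower of 41, and 10 and 15 held. Apolipoproteins apoa4b.2 and apoa4b.1, secreted with absorbed fat, fell by 0.95 and 0.75, while the amino acid transporter slc6a19a.2 and the brush border peptidases mep1a.2 and anpepb rose by 1.06, 1.28 and 0.92.

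Of 53 lysosome and autophagy genes 28 were higher and 3 lower, of which 26 and 3 held. The autophagy kinase ulk1a had 5.44, 4.32 and 5.1 CPM against 12.5, 20.4 and 20.7 CPM (log2 fold change 1.84, adjusted p = 7.03e-06). The autophagosome protein map1lc3a rose by 1.42 and the lipid scramblase atg9a by 1.32, while the lysosomal membrane protein scarb2a fell by 0.95. In the Golgi list 21 of 57 fell and 7 rose (24 and 10 without replicate 1), with a median of −0.06. In a list of the targeted gene, VPS13 lipid transfer genes, Rab6 genes and others, 2 of 10 rose and 3 fell (4 and 3 without replicate 1). The row fam177a1 of the mutated gene was itself among those that fell. Its member vps13d had 34.4, 37.1 and 33.1 CPM against 61.5, 63.6 and 62.4 CPM (log2 fold change 0.84, adjusted p = 1.56e-06). The Golgi GTPases rab6a and rab6bb changed by −0.43 and 0.47. The scramblase family row xkr8.2 fell by 2.09. Of 46 chaperone genes 32 were lower and 2 higher, and without replicate 1 the counts were 30 and 4.

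Of 40 interferon-stimulated genes 29 were higher and 1 lower, of which 28 and 1 held. The GTPase mxe had 0.927, 1.55 and 1.01 CPM in wild type and 14, 6.63 and 14.8 CPM in single mutants, with replicate 2 lowest. The adaptor STING, in the row tmem173, rose by 1.77, and the signal transducer stat1a by 0.75. Of 42 immediate early genes 23 were higher and 1 lower, but 19 and 6 without replicate 1, and 19 and 1 held. Their median was 1.28 in replicate 1, 0.26 in replicate 2 and 1.13 in replicate 3. Genes that define neutrophils and macrophages had 5 higher and 8 lower of 39, and 5 and 11 without replicate 1. Among them lcp1, an actin bundler of leukocytes, had 87.3, 86.3 and 91.8 CPM against 53.6, 46.7 and 54.0 CPM, and the peroxidase mpx had 26.3, 28.7 and 25.2 CPM against 26.2, 14.5 and 15 CPM, with replicate 1 inside the wild-type range. The summed level of the neutrophil and macrophage list was 1580, 1540 and 1460 CPM in wild type. It was 1260, 1340 and 1720 CPM in single mutants, so the genotypes overlapped. The part of such cells in the immune results was not tested.

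Of 31 red cell genes 18 were lower and 2 higher, and 17 and 2 held. The embryonic globin hbbe1.2 had 601, 551 and 456 CPM in wild type and 162, 213 and 166 CPM in single mutants (log2 fold change −1.58, adjusted p = 1.2e-06). A related embryonic globin, hbbe1.1, had 504, 158 and 237 CPM against 1120, 899 and 818 CPM, but leaving out wild-type replicate 3 ended its call (adjusted p = 0.0702). Globin genes are near copies, so reads could be split between them. The haem synthesis enzymes hmbsa, hmbsb and cpox fell by 0.99, 1.1 and 1.45.

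Of 57 fast skeletal muscle genes 26 were higher and 4 lower, and 25 and 4 of these held. The calcium pump row atp2a1l had 2220, 2010 and 2300 CPM against 3050, 3460 and 3450 CPM, and the junction protein jph1a rose by 0.89. The troponin tnnt3a and the myosin assembly factor smyd1b fell by 0.60 and 0.61. The summed level of the list was 97100, 92000 and 104000 CPM in wild type and 111000, 126000 and 132000 CPM in single mutants, without overlap. The list's median log2 fold change was 0.18. The skeletal muscle marker acta1b overlapped, with 4810, 3980 and 4510 CPM in wild type and 4150, 4080 and 4690 CPM in single mutants. The part of muscle tissue in these results was not tested. Slow muscle and heart genes had 6 higher and 6 lower of 33, all of which held.

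In the eye, single genes of cone vision changed in both directions. The cone arrestin arr3b had 31.5, 32.1 and 34.6 CPM in wild type and 117, 131 and 132 CPM in single mutants (log2 fold change 1.95, SE 0.09, adjusted p = 5.12e-10). The red opsin opn1lw2 had 368, 342 and 319 CPM against 178, 164 and 156 CPM, and the opsin kinase grk1b fell by 1.19. Cone phosphodiesterase pde6c and the arrestin arr3a rose by 0.82 and 0.83. Of 58 phototransduction genes 12 rose and 10 fell (16 and 13 without replicate 1), and all 22 held. That is 37.9% called, beside 42.0% of all genes, and the list's median was 0.01. The rod marker rho had 887, 773 and 819 CPM against 824, 815 and 890 CPM. Lens crystallins had 6 higher and 11 lower of 56 (5 and 10 held), a family of near copies.

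In skin, 13 of 44 keratin and epidermis genes rose and 12 fell, and without replicate 1 the counts were 20 and 14. The surface keratin krt4 had 4490, 4720 and 4530 CPM against 3090, 2890 and 2650 CPM, and the keratin row cyt1 fell by 1.67, while krt96 had 2.1, 3.25 and 3.58 CPM against 20.4, 20.9 and 16.8 CPM. Of 26 ionocyte genes 3 were higher and 5 lower with replicate 1, and 9 and 4 without it. Over all genes 22.5% were higher and 24.6% lower without it. The salt cotransporter slc12a3 rose by 1.0 and held. Cartilage genes had 6 higher and 6 lower of 37, bone and tooth genes 1 and 4 of 25, and pigment cell genes 4 and 5 of 31. Without replicate 1 these counts were 8 and 6, 2 and 6, and 4 and 6. The cartilage proteoglycan acanb rose by 0.86, and the metalloproteinase inhibitor timp4.3 fell by 1.70. Of 25 kidney and swim bladder genes 11 were higher and 2 lower (10 and 2 held), with the organic cation transporter slc22a2 higher by 1.06.

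In the nervous system, 22% of 41 genes of transmitter neurons were called, 27.9% of 43 genes of monoamine and peptide neurons and 25% of 56 synapse genes, beside 42.0% of all genes. Without replicate 1, 9, 18 and 17 genes of these lists were called, 0, 4 and 3 of them lower, beside 47.1% of all genes. Monoamine and peptide neurons went from 12 called genes to 18. The differences between these shares were not tested. The astroglial glutamate transporter slc1a2a averaged 8.98 ± 1.13 CPM in wild type and 20.8 ± 0.339 CPM in single mutants (SD over 3 libraries, log2 fold change 1.22, edgeR adjusted p = 1.1e-06). The synaptic scaffold homer2 rose by 0.90, the kinase camk2a by 0.61 and the monoamine oxidase mao fell by 0.63. The myelin enzyme cnp had 139, 122 and 134 CPM against 109, 81.5 and 81.5 CPM. In hair cells and the lateral line 2 of 29 rose and 1 fell, and 3 and 2 did without replicate 1.

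The 20 annotated genes on each side of the targeted gene, in the order of the reference assembly, were looked at for changes near the mutation. Of these genes, 22 matched a row and 20 were tested. Of the 20, 7 were higher and 5 lower (60.0% called, beside 42.0% over all genes), all 12 held, and 0 of these 12 changed at least 2-fold. The largest changes among the called genes were those of the NF-kappaB inhibitor nfkbiab, higher by 0.83, the F-box gene fbxo33, the first neighbour on one side, higher by 0.82, and the splicing-associated gene pnn, with a log2 fold change of −0.83. The gene ccdc175 had a log2 fold change of 1.0 and was not called (adjusted p = 0.0826).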

How the data were processed

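RNA from 9 libraries of pooled whole larvae was measured as raw counts per gene name, deposited by the authors in 1 table whose values are whole numbers. The tools named by the submitters' processing notes are cutadapt, STAR, featureCounts and DESeq2, and the build is GRCz11. For their versions, the annotation release, strandedness and multimapping reads: not given in the sources used here. All sample columns matched a label, so 0 were left unused. Rows that share a gene name are sums over copies. Names and neighbour order came from RefSeq annotation of another assembly, so no coordinates are given. Promoter and protein sequences were not analysed here.

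From the counts, rows were kept with filterByExpr of edgeR 4.0.16 in R 4.3.3, scaled with TMM factors and tested with edgeR's quasi-likelihood method (glmQLFit, robust). Genotype was the only factor, and all 9 libraries gave 6 residual degrees of freedom. P-values were adjusted by Benjamini-Hochberg over all tested genes and called under 0.05. The SE of a log2 fold change is its absolute value divided by the square root of the test's F statistic. CPM values use TMM-scaled totals, and at these depths 3 counts in 1 library are 0.121 to 0.178 CPM. Fold bounds for genes without a count use 3 counts over the group, and ratios with few counts carry exact 95% intervals. The fit was repeated without single-mutant replicate 1. The steps were tested on simulated data.

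Alternatives were other scaling factors, filters, DESeq2 1.42.0, limma-voom (limma 3.58.1), a replicate block, only the 6 libraries compared, each library left out and the single mutant reduced to replicate 1. Same-numbered libraries of wild type and single mutants did not deviate together (correlations 0.041, −0.013 and −0.035), and the main fit used no pairing. These correlations cannot show whether such libraries shared a clutch, which is not in the labels.

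Named genes were the fam177a1 row, up to 15 highest and 15 lowest folds that held with at least 1 CPM, no overlap and a symbol, up to 8 genes of each class that changed call or set replicate 1 apart, and for each list up to 5 members of smallest adjusted p plus up to 2 of the other direction. The comparison, the lists and these rules were chosen with earlier results of these data known. A motif search in promoters that had been planned was not run.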

Additional observations from a re-analysis of the deposited data

How the results depend on the processing

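The count of 9116 called genes ranged from 7327 to 10363 when 1 of the 9 libraries was left out, the counts higher from 3497 to 4949 and lower from 3552 to 5414. With a replicate block it was 9054, with limma-voom 9073, with DESeq2 8725 and with only the 6 libraries compared 7836, so the block moved no count of calls by more than 1.5 times. With the single mutant reduced to replicate 1, which leaves 1 sample in that group and takes its spread from the other groups, 5485 genes were called, 2653 of them lower, and 6 of the targeted gene's neighbours. The share of calls that were higher ran from 45.4% to 51.6% over all settings. Of 377 named genes, 281 kept direction and call in every setting, 82 gained or lost a call in at least 1 and 14 changed sign. Reduced to replicate 1, the log2 fold changes that changed sign were mmp13a −0.21, snai3 0.59, c7b −0.75, nfil3-6 −0.06, npas4a 0.04, ggt1a −0.37, lyve1a −0.25, fkbp5 −1.95, acsl4b −0.03 and trpm7 0.02. With 1 library left out, the values ran from −1.45 to 0.59 for foxq1a, −0.65 to 1.14 for cyp27b1, −1.28 to 0.50 for foxn1 and −0.21 to 1.32 for ier2b, each lowest without single-mutant replicate 1, and foxn1 was also below zero without wild-type replicate 2 (−0.21). With limma-voom they were foxq1a −0.52, foxn1 −0.43 and fkbp5 −0.11, and with the replicate block foxq1a −0.25 and foxn1 −0.00. The cause was not tested. Fewer genes were called and more calls were lost in the lowest of the 5 bins of abundance, and the part of depth in this was not tested.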
